A study of Macaca mulatta with 24 samples.

Results

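FEZF2, CRYM and TSHZ2 are genes used to mark neurons of layer 5 of the neocortex, and their transcript levels were followed here across 4 frontal areas of the rhesus monkey. They are 3 of the 14132 genes that the array's annotation names. All probe sets that name 1 of the 3 alone were taken, which gave 5 of 52865: 1 for FEZF2, 1 for CRYM and 3 for TSHZ2. The pieces came from primary motor cortex (M1, where the forelimb is represented), the dorsal premotor area (PMd), the ventral premotor area (PMv) and the prefrontal area A46. Every area was dissected from the left and right hemispheres of the same 3 group-caged, untreated Macaca mulatta, males 1 and 2 and female 3, aged 2.6 to 2.7 years. The animals had been perfused with cold saline containing heparin under a pentobarbital overdose before dissection. Each of the 24 pieces was put on its own array, 6 arrays per area, and the animal was the replicate (n = 3).

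Layer 5 holds the large pyramidal neurons through which the cortex reaches the brainstem and spinal cord, together with neurons that project within the cortex and a class of near-projecting neurons with short axons. FEZF2 is a zinc-finger transcription factor that sets the subcerebral fate in layer 5 in part through BCL11B. CRYM encodes mu-crystallin, a cytosolic protein that binds thyroid hormone and is a marker of corticospinal neurons in rodents. TSHZ2 is a zinc-finger homeobox factor of the teashirt family and a marker of near-projecting neurons. A dissected piece mixes all layers, so fewer cells of a type and less RNA per cell cannot be told apart in any value below.

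The values are probe set intensities that the submitters summarised with RMA (robust multi-array average), and the sizes of differences are given on the log2 scale. The 3 genes were put together because of their directions between M1 and A46, so that comparison is described without a test. Among all probe sets other than controls, the geometric mean over arrays lay at the 88.1st percentile for FEZF2 (intensity 323), the 96.3rd for CRYM (851) and the 60th for the brightest TSHZ2 probe set (72.7). The other TSHZ2 probe sets had means of 33.2 and 21.6. Both lay below the intensity of 49.3 that a probe set had to reach to be tested, so 3 of 5 probe sets were tested, 1 for each gene.

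FEZF2 was lowest in A46 and highest in M1 in 3 of 3 animals. Its intensity over the 6 arrays of an area was 243 to 290 in A46 (median 247), 267 to 409 in PMv (median 333), 286 to 376 in PMd (median 334) and 361 to 474 in M1 (median 379). The M1 arrays were all above the A46 arrays, while both premotor areas overlapped with each of their neighbours in this order. The mean log2 intensity of A46 was 7.99 ± 0.09, that of PMv 8.37 ± 0.18, that of PMd 8.37 ± 0.07 and that of M1 8.6 ± 0.12 (SD, n = 3 animals). From A46 to M1 the geometric mean intensity went from 244 to 362 in animal 1, from 246 to 424 in animal 2 and from 275 to 379 in animal 3. The difference was 0.61 (SE 0.09), or 1.52-fold, and was 0.57, 0.78 and 0.46 in animals 1, 2 and 3. The left M1 array of animal 2, at 474, stood above the other 5 M1 arrays (361 to 380), and with the right array alone for that piece the difference was 0.55.

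CRYM ran the other way, highest in A46 and lowest in M1 in 3 of 3 animals. Its intensity was 975 to 1340 in A46 (median 1100), 641 to 1070 in PMv (median 893), 725 to 926 in PMd (median 789) and 590 to 790 in M1 (median 677). All A46 arrays were above all M1 arrays and above all PMd arrays, and they overlapped with those of PMv. The mean log2 intensity of A46 was 10.12 ± 0.16, that of PMv 9.75 ± 0.24, that of PMd 9.65 ± 0.13 and that of M1 9.41 ± 0.11 (SD, n = 3 animals). The geometric mean intensity in A46 and M1 was 1000 and 630 in animal 1, 1250 and 688 in animal 2, and 1100 and 732 in animal 3. M1 minus A46 was -0.7 (SE 0.08), a 1.63-fold lower level, with -0.67, -0.86 and -0.58 in the 3 animals.

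TSHZ2 was also lowest in M1 in 3 of 3 animals, and it was highest in A46 in animals 2 and 3. In animal 1 PMd and A46 were level, at geometric mean intensities of 76.4 and 76.2. Over arrays its intensity was 70 to 135 in A46 (median 86.4), 60.2 to 94.7 in PMv (median 66), 67.2 to 88.7 in PMd (median 77.5) and 47.8 to 67.8 in M1 (median 50.4). The A46 arrays were all above the M1 arrays, and the premotor arrays overlapped with both. The mean log2 intensity of A46 was 6.56 ± 0.39, that of PMv 6.14 ± 0.25, that of PMd 6.29 ± 0.14 and that of M1 5.75 ± 0.22 (SD, n = 3 animals). M1 minus A46 was -0.81 (SE 0.09), a 1.76-fold lower level, with -0.61, -0.99 and -0.83 in the 3 animals. Animal 2 had the highest TSHZ2 level in each of the 4 areas, from 64.3 in M1 to 128 in A46.

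**Figure D1:**
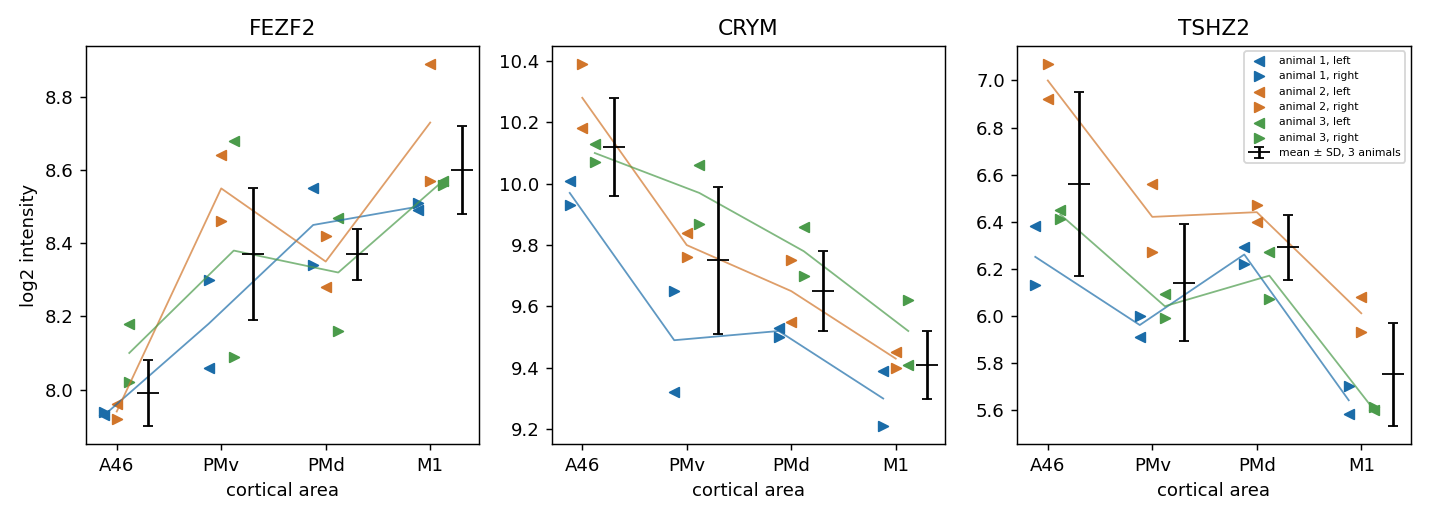
Log2 intensity (vertical axes, a separate scale for each gene) of the tested FEZF2, CRYM and TSHZ2 probe sets in A46, PMv, PMd and M1; triangles are arrays, colours are animals, lines join each animal's mean of left and right, and black bars are the mean ± SD over 3 animals. FEZF2 went from 7.99 in A46 to 8.6 in M1, CRYM from 10.12 to 9.41 and TSHZ2 from 6.56 to 5.75.

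Arrays of M1 and A46 did not overlap for 3 of the 3 tested probe sets. Between these areas that was so for 8.68% of all 26383 tested probe sets, and limma, a linear model across all probe sets, called 12.9% in that comparison at an adjusted p under 0.05. Since the genes were chosen on this comparison, nothing is read from these counts.

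Area explained most of the spread of the 12 animal-by-area means of each gene's tested probe set. The share that went with the animal differed. Area accounted for 82.2% of the variance for FEZF2, 77.3% for CRYM and 64.8% for TSHZ2, against a median of 25.9% over all tested probe sets; these shares include the comparison used to choose the genes. Animal accounted for 4.86% for FEZF2, 16.8% for CRYM and 29.9% for TSHZ2, against a median of 29.4%.

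The dimmer TSHZ2 probe sets were read separately, because they carry the same gene name and differ in how far they follow the brightest one. The second probe set had an intensity of 36.3 to 53.3 in A46 (median 38.6), 23.3 to 34 in PMv (median 32), 27.2 to 40.3 in PMd (median 30.9) and 22 to 33.5 in M1 (median 30.6). It was highest in A46 in 3 of 3 animals, and its A46 arrays were above all arrays of M1 and PMv; 1.48% of all tested probe sets kept A46 and PMv apart in this way. Its M1 minus A46 difference was -0.53 (SE 0.1), with -0.59, -0.77 and -0.21 in the 3 animals. Unlike the brightest probe set it put M1 close to the premotor areas, with M1 minus PMd at -0.14 (95% interval -0.36 to 0.07) and M1 minus PMv at -0.08 (SE 0.1), or -0.17 (SE 0.12) without the right PMv array of animal 1, which read 23.3. The third probe set, 17.8 to 28.1 over all A46 arrays and 18.4 to 23 in M1, overlapped between every pair of areas, with M1 minus A46 at -0.18 (SE 0.09; -0.03, -0.36 and -0.15 in the 3 animals). The 3 probe sets therefore gave the same sign for M1 minus A46 and different sizes. Whether they read different transcripts of TSHZ2 was not tested.

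**Figure D2:**
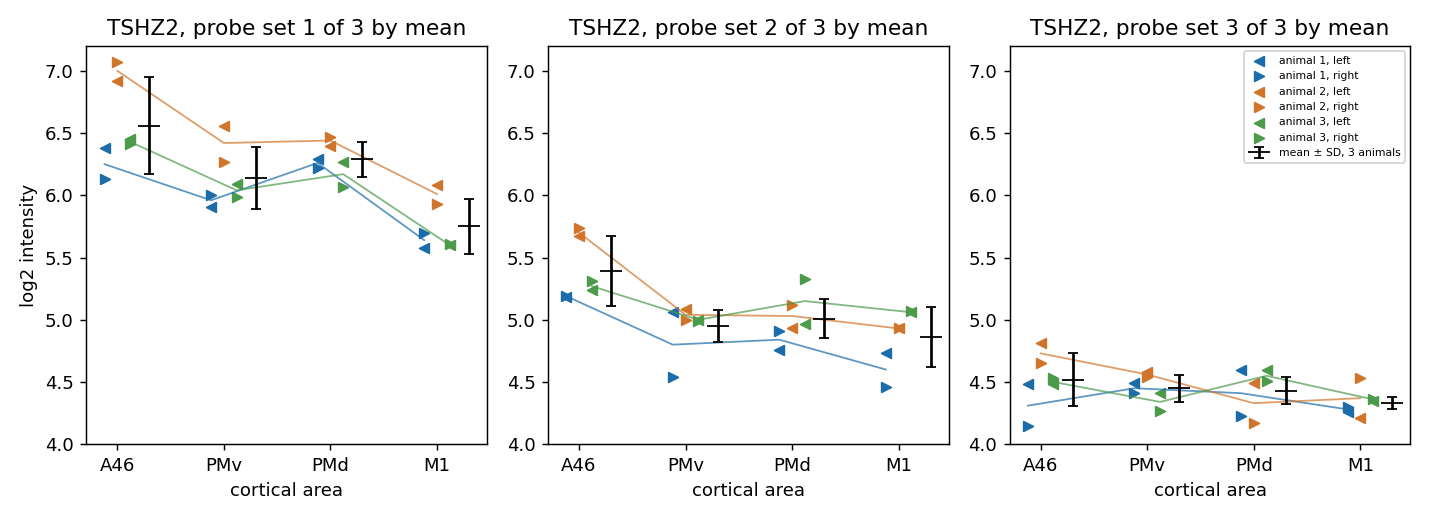
Log2 intensity (vertical axes, on a shared scale) of the 3 TSHZ2 probe sets by area, ordered by their mean; triangles are arrays, colours are animals, lines join animal means and black bars are the mean ± SD over 3 animals. The second probe set stands out in A46 (mean 5.39, against 4.86 to 5.01 elsewhere), and the third lies between 4.33 and 4.52 in all areas.

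The premotor areas were compared with A46 by limma, with the animal as a term and Benjamini-Hochberg adjustment over all tested probe sets. FEZF2 was 1.3-fold higher in PMd than in A46 (0.38, SE 0.09, adjusted p = 0.0464), with 0.51, 0.41 and 0.21 in animals 1, 2 and 3. CRYM was 1.39-fold lower in PMd (-0.47, SE 0.08, adjusted p = 0.00956), with -0.45, -0.63 and -0.32. Its PMd and A46 arrays did not overlap, which held for 1 of 3 genes and 2.41% of all tested probe sets. TSHZ2 did not pass there (-0.27, SE 0.09, adjusted p = 0.159), with 0, -0.56 and -0.27 in the animals. So 2 of 3 genes passed, 1 higher and 1 lower, where 1.95% of all tested probe sets did, 1.39% higher and 0.561% lower. In PMv against A46, CRYM was lower (-0.37, SE 0.08, adjusted p = 0.0373) and so was TSHZ2 (-0.42, SE 0.09, adjusted p = 0.0451), each in 3 of 3 animals. FEZF2 had the same estimate as in PMd and did not pass (0.38, SE 0.09, adjusted p = 0.0585, higher in 3 of 3 animals). Again 2 of 3 genes passed, both lower, where 1.23% of all tested probe sets did, 0.629% higher and 0.599% lower. These comparisons share the A46 arrays with the one used to choose the genes, so their counts are not independent of that choice. With 1 animal left out the calls were lost without animal 1 (adjusted p = 0.314 for FEZF2 and 0.0866 for CRYM in PMd, 0.316 for CRYM and 0.101 for TSHZ2 in PMv) and without animal 2 (0.636, 0.515, 0.963 and 0.963). Without animal 3 they passed, and FEZF2 in PMv passed too (0.00642).

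M1 was next compared with each premotor area; here the M1 arrays are those used to choose the genes, so the counts of genes that passed are again not independent of the choice. TSHZ2 was 1.45-fold lower in M1 than in PMd (-0.54, SE 0.09, adjusted p = 0.0328), with -0.62, -0.43 and -0.57 in the 3 animals. Its M1 arrays ran from 47.8 to 67.8 and its PMd arrays from 67.2 to 88.7, so the groups overlapped at one end; 1.22% of all tested probe sets kept M1 and PMd arrays apart. FEZF2 (0.23, SE 0.09, adjusted p = 0.467) and CRYM (-0.23, SE 0.08, adjusted p = 0.293) did not pass against PMd, although each had its sign in 3 of 3 animals. Thus 1 of 3 genes passed for M1 minus PMd, where 0.33% of all tested probe sets did, 0.171% higher and 0.159% lower. Against PMv, CRYM was 1.26-fold lower in M1 (-0.34, SE 0.08, adjusted p = 0.04), with -0.19, -0.38 and -0.45 in the animals. TSHZ2 (-0.39, SE 0.09, adjusted p = 0.0503) and FEZF2 (0.23, SE 0.09, adjusted p = 0.233) did not pass, so 1 of 3 genes passed, where 1.87% of all tested probe sets did, 1.41% higher and 0.466% lower. No gene of the 3 kept M1 and PMv arrays apart, as 1.76% of all tested probe sets did. The TSHZ2 call in M1 minus PMd was lost without animal 1 (adjusted p = 0.0867), animal 2 (0.492) or animal 3 (0.0516). The CRYM call in M1 minus PMv was lost without animal 1 (0.123) or animal 2 (0.707), and TSHZ2 passed in that comparison without animal 3 (0.0491). The 6 calls of these genes against A46 or M1 were all lost without animal as a term, at adjusted p = 0.279 to 0.884, and with left hemispheres alone, at 0.142 to 0.337.

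PMd and PMv were not separated by any of the 3 genes. FEZF2 differed by 0 (95% interval -0.19 to 0.19), CRYM by -0.1 (-0.27 to 0.06) and TSHZ2 by 0.15 (-0.05 to 0.35), PMd minus PMv. The intervals leave room for differences of up to 1.14-fold for FEZF2 and 1.27-fold for TSHZ2. The limma counts were 0 of 3 genes at an adjusted p under 0.05 and 0 at an unadjusted p under 0.05, and 0.00758% of all tested probe sets passed, all of them higher. Arrays overlapped for all 3 genes, and 0.19% of all tested probe sets kept the premotor areas apart. The order of the 2 premotor areas changed between animals for FEZF2 and CRYM, with PMd above PMv in animal 1 and below it in animals 2 and 3. For TSHZ2 PMd was above PMv in 3 of 3 animals, by 0.3, 0.02 and 0.13.

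The mean of the premotor areas was also set against the midpoint of M1 and A46, a comparison that does not depend on how far M1 and A46 lie apart. The premotor mean lay 0.08 above the midpoint for FEZF2 (95% interval -0.06 to 0.21), 0.07 below it for CRYM (-0.07, -0.18 to 0.05) and 0.06 above it for TSHZ2 (-0.08 to 0.2). In limma 0 of 3 genes passed, none at an unadjusted p under 0.05 either, and 0.0303% of all tested probe sets passed, 0.0265% higher and 0.00379% lower. In the premotor mean the 3 genes were thus not shown to depart from the midpoint by more than these intervals.

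**Figure D3:**
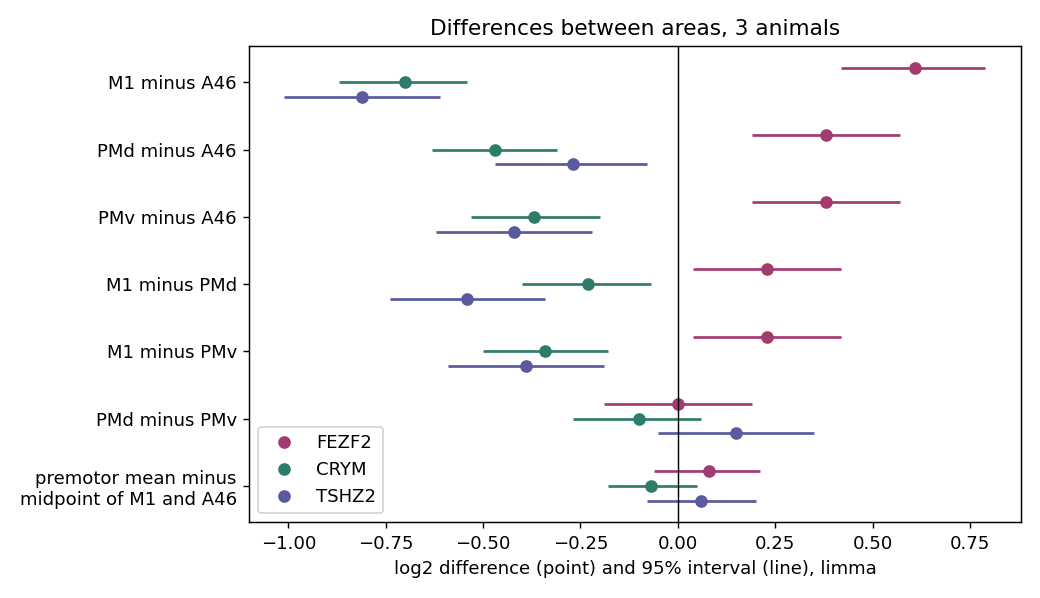
Log2 differences between areas (horizontal axis; points, with 95% intervals from limma as lines) for FEZF2, CRYM and TSHZ2 in 7 comparisons over 3 animals. M1 minus A46, shown as a description, was used to choose the genes; the intervals include 0 for PMd minus PMv and for the premotor mean against the midpoint of M1 and A46; the intervals are not adjusted for the number of probe sets.

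No difference between left and right hemispheres was called. The left minus right difference over 12 pairs of pieces was 0.12 for FEZF2 (95% interval 0 to 0.24, adjusted p = 0.642, left higher in 8 of 12 pairs). It was -0.01 for CRYM (-0.11 to 0.09, adjusted p = 0.982, left higher in 8 of 12 pairs) and 0.05 for TSHZ2 (-0.04 to 0.15, adjusted p = 0.829, left higher in 7 of 12 pairs). In limma no gene of the 3 and 0% of all tested probe sets passed. FEZF2 was the one gene of the 3 with an unadjusted p under 0.05, as had 7.66% of all tested probe sets. The pairs come from 3 animals, so this limma fit rests on more units than animals. With 1 left minus right value per animal, 38 of all tested probe sets passed and the adjusted p was 0.556 for FEZF2, 0.997 for CRYM and 0.928 for TSHZ2. The largest pair difference was 0.59 for FEZF2, in PMv of animal 3, at 409 on the left and 272 on the right. A difference between hemispheres that varied with area was not called for any of the 3 genes (limma F test, adjusted p = 0.999 for FEZF2, 1 for CRYM and 0.999 for TSHZ2), and none had an unadjusted p under 0.05, as had 4.22% of all tested probe sets.

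**Figure D4:**
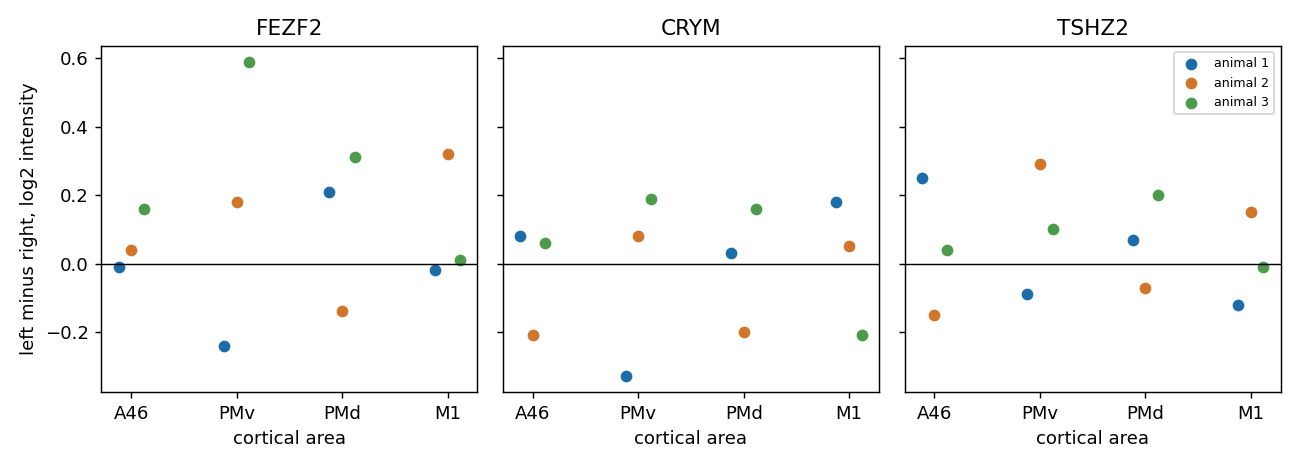
Left minus right difference in log2 intensity (vertical axis) for each of the 12 pairs of pieces, by area and animal (colours), for the tested probe sets of FEZF2, CRYM and TSHZ2. Pair differences ran from -0.24 to 0.59 for FEZF2, -0.33 to 0.19 for CRYM and -0.15 to 0.29 for TSHZ2.

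Other genes of the same neuron classes were counted in M1 minus A46, where the median over all tested probe sets was -0.01 and limma called 7.49% of them higher and 5.36% lower. All lists here and below were chosen with earlier results of these data known, so their counts and calls are not independent of the data. Of 16 further markers of neurons that project below the cortex, 13 were on the array and 10 were tested; 2 were higher in M1, 1 was lower and 7 did not pass, with a median of 0.12. CNTN6, a neural adhesion molecule of the contactin family, was higher (0.61, SE 0.08, adjusted p = 0.000463), as was POU3F1, a POU transcription factor (0.31, SE 0.07, adjusted p = 0.0108). VAT1L, a marker of extratelencephalic neurons, was lower (-0.25, SE 0.07, adjusted p = 0.04), and the formin DIAPH3 did not pass (0.3, SE 0.1, adjusted p = 0.0563). BCL11B, the partner of FEZF2 in corticospinal neurons, was below the intensity limit and was not tested. Without animal 1 POU3F1 (adjusted p = 0.0781) and VAT1L (0.221) did not pass, nor did they without animal 2 (0.371 and 0.358), while CNTN6 passed without any 1 animal. VAT1L was also lost with no filter on intensity (adjusted p = 0.059) and without animal as a term (0.3).

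Markers of neurons that project within the cortex also went both ways in M1 minus A46. Of 8 tested, 2 were higher and 2 lower, with a median of 0.06. Over all tested probe sets 7.49% were called higher and 5.36% lower. RBP4, a retinol-binding protein, was lower (-0.73, SE 0.09, adjusted p = 0.000129), as was the semaphorin receptor PLXND1 (-0.3, SE 0.07, adjusted p = 0.0107). The ETS factor ETV1 (0.45, SE 0.08, adjusted p = 0.00301) and DKK3 (0.24, SE 0.06, adjusted p = 0.0195) were higher, ETV1 with this sign in 2 of 3 tested probe sets. Of these only RBP4 passed without any 1 animal: PLXND1 (adjusted p = 0.124) and DKK3 (0.0859) did not pass without animal 1, nor PLXND1 (0.106), ETV1 (0.168) and DKK3 (0.301) without animal 2. PLXND1 (0.0604) and DKK3 (0.317) did not pass without animal as a term. Of 5 further near-projecting markers 2 were tested, ITGA8 (0.06, adjusted p = 0.683) and NXPH2 (-0.05, adjusted p = 0.783). Neither passed in limma, and neither had an unadjusted p under 0.05. With 2 genes tested, where 12.9% of all tested probe sets were called, nothing is read from this.

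Among transcription factors that act with or against FEZF2, 5 of 11 were tested in M1 minus A46, of which 1 was higher and 2 were lower (median -0.05). For these and for the layer 6 markers below, the shares over all tested probe sets were 7.49% higher and 5.36% lower. BHLHE22, a basic helix-loop-helix factor of postmitotic projection neurons (-0.71, SE 0.1, adjusted p = 0.000625), and NR2F1, the nuclear receptor that holds back motor identity in rodent cortex (-0.4, SE 0.08, adjusted p = 0.00554), were lower. TBR1, the layer 6 determinant, was higher (0.2, SE 0.06, adjusted p = 0.0391), and SOX5 did not pass (0.32, SE 0.12, adjusted p = 0.122). Of 5 tested layer 6 markers 2 were higher, TBR1 and the corticothalamic marker SYT6 (0.88, SE 0.12, adjusted p = 0.000323), and 0 lower (median 0.06; 0 lower also at an unadjusted p under 0.05). Without animal 2 the adjusted p was 0.116 for NR2F1 and 0.628 for TBR1, and without animal 1 TBR1 had 0.0975. Without animal 1 SOX5 passed (0.0107). TBR1 did not pass with no filter on intensity (0.0676), and TBR1 (0.122) and BHLHE22 (0.0506) did not pass without animal as a term.

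The relatives of TSHZ2 were measured too. TSHZ3, the teashirt family member known from corticostriatal neurons, had a lower level than in A46 in each motor area: in M1 (-0.56, SE 0.07, adjusted p = 0.00031), in PMd (-0.49, SE 0.07, adjusted p = 0.0065) and in PMv (-0.5, SE 0.07, adjusted p = 0.00742). Both of its tested probe sets had this sign in each comparison. M1 minus PMd was -0.07 for TSHZ3 (adjusted p = 0.999), where TSHZ2 had -0.54; the difference between the genes was not tested. TSHZ1 did not pass in M1 (-0.2, adjusted p = 0.139), PMd (-0.24, adjusted p = 0.161) or PMv (-0.31, adjusted p = 0.0836). Without animal 2 TSHZ3 did not pass in PMd (adjusted p = 0.284) or PMv (0.404), nor in PMv without animal 1 (0.0675), and it passed in M1 without any 1 animal. Without animal as a term its adjusted p was 0.0565 in M1, 0.363 in PMd and 0.42 in PMv.

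CRYM binds thyroid hormone, so genes of thyroid hormone transport, conversion, receptors and coregulators were counted too. Of 16 such genes 9 were on the array and 5 were tested, and 0 passed in M1 minus A46 in limma, also at an unadjusted p under 0.05 (median 0). As 12.9% of all tested probe sets were called there, 0 of 5 is not read as a result about these genes. The corepressor NCOR1 differed by -0.13 (SE 0.07, adjusted p = 0.281), the coactivator MED1 by 0.12 (SE 0.07, adjusted p = 0.301) and the deiodinase DIO2, which makes the active hormone, by 0.11 (SE 0.12, adjusted p = 0.618). The receptors THRA and THRB have no probe set naming them alone here, so the list covers the pathway in part.

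**Figure D5:**
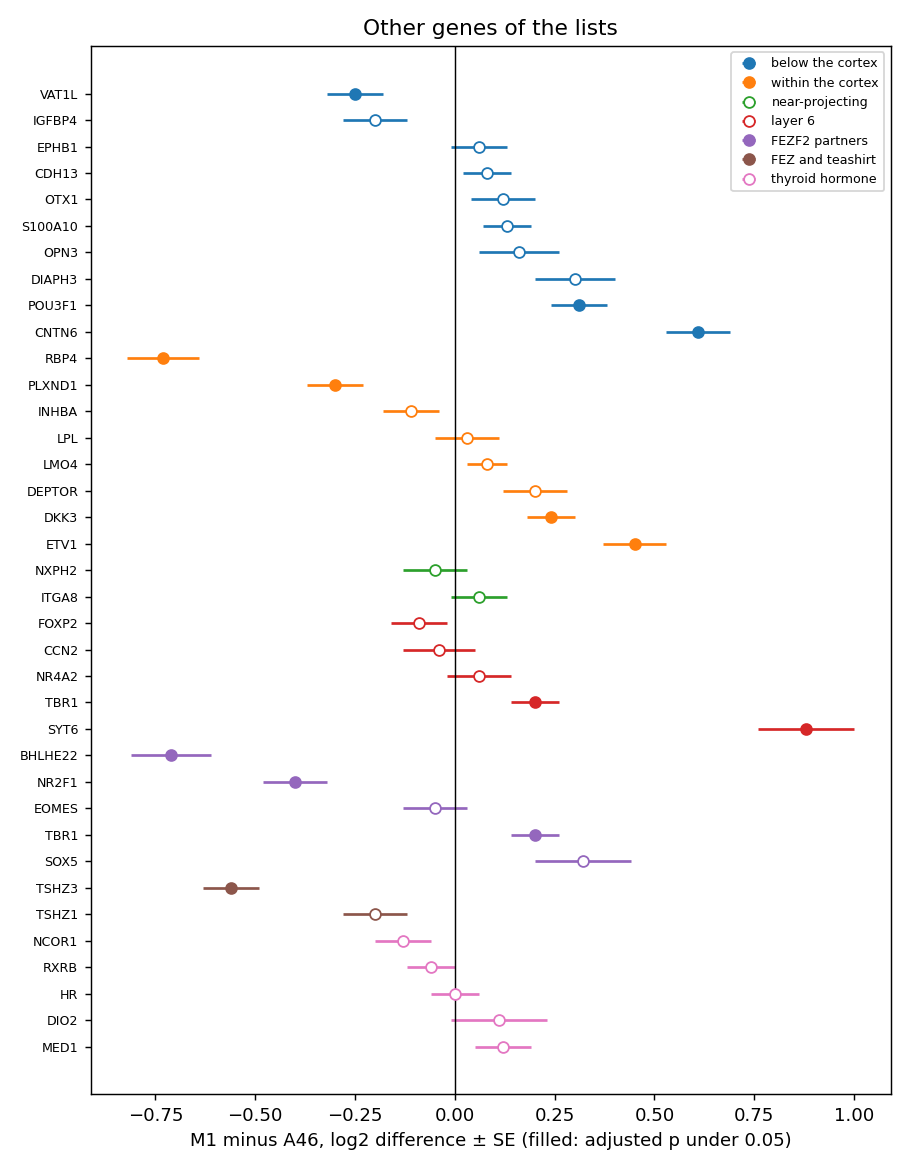
M1 minus A46 log2 difference ± SE (horizontal axis, 3 animals) for the tested genes of the 7 lists on neuron classes, FEZF2 partners, teashirt relatives and thyroid hormone, other than FEZF2, CRYM and TSHZ2, coloured by list (marker lists of other cells and of large neurons are not drawn); filled points passed an adjusted p under 0.05 in limma. SYT6 (0.88) and CNTN6 (0.61) lie farthest to the right of the genes drawn, and RBP4 (-0.73) and BHLHE22 (-0.71) farthest to the left.

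The same markers were then counted in the premotor areas against A46. Of the 10 further subcerebral markers 3 were higher in PMd, namely DIAPH3 (1.25, SE 0.1, adjusted p = 3.67e-05), CNTN6 (0.67, SE 0.08, adjusted p = 0.00287) and POU3F1 (0.35, SE 0.07, adjusted p = 0.0234). In PMv 2 were higher, CNTN6 (0.44, SE 0.08, adjusted p = 0.0289) and POU3F1 (0.35, SE 0.07, adjusted p = 0.0358). Of all tested probe sets, 1.39% were called higher in PMd and 0.629% in PMv. Of the markers of neurons that project within the cortex, 0 of 8 passed in PMd or PMv, with 3 and 0 at an unadjusted p under 0.05. In either direction 1.95% of all tested probe sets were called in PMd and 1.23% in PMv. With shares this small, 0 of 8 is not read as a difference between the neuron classes. Without animal 2 the adjusted p of CNTN6 was 0.162 in PMd and 0.881 in PMv, and that of POU3F1 0.68 and 0.963. Without animal 1 it was 0.239 for POU3F1 in PMd and 0.0709 and 0.296 for CNTN6 and POU3F1 in PMv. Without animal 3 the fit called 3055 of all tested probe sets in PMd and 7010 in PMv. In PMv DIAPH3 (0.0276), OTX1 (0.0194), CDH13 (0.0269), VAT1L (0.0194) and OPN3 (0.0352) then passed. VAT1L and OPN3 had negative differences over all animals (-0.14 and -0.19). S100A10 then passed in PMd (0.0407). Of the within-cortex markers, ETV1 (0.0409) and LMO4 (0.0297) passed in PMd and LPL (0.0295) in PMv. Without animal as a term none of the subcerebral calls made over all animals passed. Their adjusted p then ran from 0.0544 for CNTN6 in PMd to 0.258 for CNTN6 in PMv. DIAPH3 was also lower in M1 than in PMd (-0.95, SE 0.1, adjusted p = 0.00187), a call lost without animal 2 (0.138) and without animal as a term (0.534).

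The genes most like each member were ranked by Pearson's r over the 12 animal-by-area means, after centring on each animal, among 10042 other genes. With 12 points from 3 animals and that many genes, high values are given as a description only. FEZF2 was most like KLK6, a protease enriched in oligodendrocytes (0.982), HIBADH (0.981), SPMIP7 (0.98), LGALS8 (0.975) and RTF2 (0.975). CRYM was most like MTCH1 (0.987), EPB41L4B (0.981), MARCHF4 (0.98), CD200 (0.979) and the phosphatase PTPRR (0.978). TSHZ2 was most like FXYD6, a regulator of the sodium pump (0.975), SUV39H1 (0.958), PNCK (0.955), PACSIN1 (0.946) and PLA2G4C (0.945). Of these genes the sizes differed, with M1 minus A46 at 1.78 for KLK6 beside 0.61 for FEZF2, and -0.22 for MTCH1 beside -0.7 for CRYM. Among the members CRYM and TSHZ2 had r = 0.89, FEZF2 and CRYM -0.899, and FEZF2 and TSHZ2 -0.834, directions that the choice of the genes fixes. Within areas, after centring on area as well, these were 0.5, -0.13 and 0.121.

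Markers of other cells moved along the same areas. The summed intensity of the 7 oligodendrocyte and myelin genes on the array, of 14 listed, was 9837 to 13375 over A46 arrays, 14014 to 18825 in PMv, 13389 to 17857 in PMd and 18797 to 25656 in M1. No gene of that list was at 0, the defining genes MOG and MAG have no probe set naming them alone here, and 6 of the 7 were higher in M1 than in A46. Over all tested probe sets 7.49% were called higher in that comparison and 5.36% lower. The mean of the list followed FEZF2 with r = 0.972 over the 12 means and 0.853 within areas. For CRYM these were -0.95 and -0.487, and for TSHZ2 -0.902 and -0.228. The 3 neurofilament and large projection neuron genes on the array, NEFH, SPP1 and VAMP1, followed FEZF2 with 0.938 and 0.841 within areas. For CRYM these were -0.962 and -0.339, and for TSHZ2 -0.896 and -0.153. The summed intensity of these large-neuron genes was 941 to 1278 in A46 and 3569 to 4886 in M1. Both lists rose from A46 to M1, so the choice of the genes on that comparison largely fixes the signs of r over the 12 means. The values within areas, centred on animal and area, leave 6 degrees of freedom. Upper layer and layer 4 markers, 8 of 8 on the array, summed to 6537 to 8039 in A46 and 4754 to 5722 in M1. Of the 8, 5 were called lower in M1 and 0 higher, and LAMP5 (-0.01), CUX1 (-0.12) and RASGRF2 (-0.18) did not pass. Their mean had r = -0.873 with FEZF2, 0.913 with CRYM and 0.852 with TSHZ2, signs that the choice of the genes again largely fixes. Within areas these were -0.136, 0.451 and -0.472. General neuron markers, 5 of 7 on the array, overlapped in sum, with 15442 to 16608 in A46 and 15072 to 16758 in M1. Of the general neuron markers, GAD2 (0.78) and STMN2 (0.25) were called higher in M1. SYT1 (-0.14), GAD1 (-0.17) and SLC17A7 (-0.16) had the other sign and did not pass, and the list median was -0.14. The part of myelin, large-neuron and upper layer content in the levels of FEZF2, CRYM and TSHZ2 was not tested.

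Measures of array quality overlapped between areas. Median intensity was 47.9 to 51.7 per array, and any 2 arrays correlated at 0.977 to 0.997. RNA integrity was read from the actin and GAPDH control probe sets, as the log2 excess of the 3' over the 5' signal. For actin it was 0.82 to 1.23 in A46, 0.88 to 1.32 in PMv, 0.77 to 1.16 in PMd and 0.81 to 1.07 in M1. For GAPDH it was 0.78 to 0.93 in A46, 0.81 to 1.01 in PMv, 0.75 to 1.17 in PMd and 0.86 to 1.09 in M1. The GAPDH ranges of A46 and M1 overlapped, and that of M1 reached higher. Of the other cell types listed, astrocyte markers (6 of 8 on the array) had 2 genes called higher and 0 lower for M1 minus A46, microglia markers (8 of 8) 2 and 1, meninges and choroid plexus markers (4 of 6) 1 and 0, striatal markers (3 of 6) 1 and 0, and endothelial and pericyte markers (4 of 6, 3 tested) 0 and 0. Over all tested probe sets 7.49% were called higher and 5.36% lower. The median of the meninges and choroid plexus list was -0.23. In that list SLC47A1 was the gene called higher (0.29), while LUM (-0.42) and COL1A2 (-0.55) had the other sign and did not pass.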

How the data were processed

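Total RNA from 24 pieces of cortex was hybridised to 1-colour Affymetrix Rhesus arrays, 1 per piece. The deposited values are intensities on a linear scale, summarised with RMA per the submitters' processing notes; which RMA version was used, and which arrays it normalised as 1 set, is not given in the sources used here. No genome build is named, so no coordinates are given. Values were turned into log2 (floor of 1, with 0 values below it). Of 52865 probe sets, 99 controls were removed; of the rest, 24956 have 1 gene symbol, 361 several and 27449 none. Probe sets with a mean log2 below the median, 5.62, were not tested, leaving 26383. A gene was represented by its brightest probe set. Left and right were averaged to 12 means, and limma 3.58.1 (R 4.3.3; lmFit, eBayes with an intensity trend) was fitted with area and animal as terms over all 4 areas (6 residual degrees of freedom). Left minus right was fitted on 24 arrays, blocking on the 12 pairs of pieces. An adjusted p under 0.05 was called; tests were two-sided. Same-animal means correlated at 0.207 to 0.85 after area means were removed, and means of different animals at -0.757 to 0.0654. Within an area the deviations of the 3 animals cancel out, which by itself pulls the values for different animals down. The correlations are thus not a test of the pairing, which comes from the animal numbers in the titles. Named were the 3 genes, up to 4 genes per list by smallest p and the 5 most alike. The members and lists were chosen with earlier results of these data known. The fits were tested on simulated data. Alternatives were the filter, the scale, the normalization, the trend, the block, single hemispheres, a random block and leaving out each animal. The largest number of identical values in a pair of arrays was 126. Microarrays have no read depth, and 3 animals limit the precision.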

Additional observations from a re-analysis of the deposited data

Results flagged for a closer look

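Among 20 sets of 6 arrays (5 probe sets in 4 areas), 2 held an array far from the other 5; chance flags about 1 set in 20. For FEZF2 the left M1 array of animal 2 read 474, and the other M1 arrays 361 to 380. For the second TSHZ2 probe set the right PMv array of animal 1 read 23.3, and the other PMv arrays 31.9 to 34. Without that array PMv minus A46 of this probe set was -0.35 (SE 0.12), where all arrays gave -0.44 (SE 0.1), and M1 minus PMv was -0.17 (SE 0.12), where all arrays gave -0.08 (SE 0.1).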

How the results depend on the processing

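In M1 minus A46 the estimates kept their sign in all 13 alternatives, at 0.52 to 0.68 for FEZF2, -0.76 to -0.63 for CRYM and -0.91 to -0.66 for TSHZ2. The calls in the other comparisons were not stable. With no replicate block, that is without the pairing by animal, all 6 calls were lost: FEZF2 0.38 and CRYM -0.47 in PMd minus A46, CRYM -0.37 and TSHZ2 -0.42 in PMv minus A46, CRYM -0.34 in M1 minus PMv and TSHZ2 -0.54 in M1 minus PMd. In the same order, 6 were lost with left hemispheres only (0.41, -0.46, -0.36, -0.39, -0.33 and -0.57). All but CRYM in PMd minus A46 were lost with right hemispheres only (0.35, -0.37, -0.45, -0.35 and -0.51) and with median centring (0.38, -0.37, -0.43, -0.32 and -0.53). Lost without the intensity trend were FEZF2 in PMd minus A46 (0.38) and CRYM in PMv minus A46 (-0.37) and M1 minus PMv (-0.34), and with no filter FEZF2 in PMd minus A46 (0.38) and TSHZ2 in PMv minus A46 (-0.42). FEZF2 in PMv minus A46 passed with quantile normalization (0.42), with pairs as a random block over 24 arrays (0.38) and with the right array alone for M1 of animal 2 (0.38, an alternative chosen after seeing the data). TSHZ2 in M1 minus PMv passed with the random block (-0.39) and that right array alone (-0.41). FEZF2 in PMd minus PMv turned to -0.05 with quantile normalization and -0.02 with left hemispheres only, and CRYM left minus right to 0.01 with quantile normalization. With 1 animal left out the ranges were 0.31 to 0.46 (FEZF2, PMd minus A46), 0.26 to 0.44 (FEZF2, PMv minus A46), -0.13 to 0.1 (FEZF2, PMd minus PMv), -0.54 to -0.39 (CRYM, PMd minus A46), -0.48 to -0.31 (CRYM, PMv minus A46), -0.41 to -0.28 (CRYM, M1 minus PMv), -0.49 to -0.35 (TSHZ2, PMv minus A46), -0.59 to -0.5 (TSHZ2, M1 minus PMd), -0.43 to -0.36 (TSHZ2, M1 minus PMv) and -0.04 to 0.02 (CRYM, left minus right). Values that were not called moved too: TSHZ2 in PMd minus A46 was -0.41 without animal 1 and -0.13 without animal 2, FEZF2 in M1 minus PMd 0.31 and 0.15, FEZF2 left minus right 0.18 without animal 1 and 0.05 without animal 3, CRYM against the midpoint -0.13 without animal 3 and -0.03 without animal 1, and TSHZ2 against the midpoint 0.01 without animal 1 and 0.12 without animal 2. The cause of these changes was not tested. Probe sets called, over all tested, ranged over the alternatives from 403 to 5410 in M1 minus A46 (3391 as reported), 8 to 3055 in PMd minus A46 (515), 1 to 7010 in PMv minus A46 (324), 0 to 433 in M1 minus PMd (87), 4 to 3814 in M1 minus PMv (494), 0 to 1398 in PMd minus PMv (2) and 0 to 2003 for the premotor mean against the midpoint (8). The highest of these counts came without animal 3, except in M1 minus PMd (pairs as a random block). The lowest came without the replicate block, except in M1 minus A46 (without animal 2). Leaving out animal 2 gave the same lowest count in PMv minus A46, M1 minus PMd, PMd minus PMv and against the midpoint. Left hemispheres only also gave 0 in PMd minus PMv and against the midpoint. So did the right array alone for M1 of animal 2 in PMd minus PMv, and leaving out animal 1 against the midpoint.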
